A study of Mus musculus with 9 samples.

Results

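Transcripts of 5 glycolytic enzymes (Hk2, Pfkp, Pfkm, Aldoa and Pgk1) and of the pyruvate dehydrogenase kinase Pdk1 were followed in BV2 cells, an immortalized line of mouse microglia that is kept as a culture model of the brain's resident macrophages. The 6 genes were taken by symbol from the deposited table, where each has its own entry among 6462 listed genes. Cells received no treatment (0 h), or the bacterial cell wall component lipopolysaccharide (LPS) at 200 ng/ml for 1 h or for 12 h. Each of the 3 groups had 3 libraries, 9 in all, made from mRNA. Samples of untreated cells at 1 h or 12 h were not analysed here, so LPS and time in culture cannot be told apart, and no label ties the 3 libraries of a group to separate cultures; a p-value here measures only how these libraries spread. In such bulk RNA, fewer cells that express a gene and less of its RNA per cell cannot be told apart.

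Glycolysis splits glucose into pyruvate in the cytosol. Hexokinase traps glucose in the cell as glucose 6-phosphate, phosphofructokinase commits it to the pathway, aldolase cleaves the resulting sugar bisphosphate, and phosphoglycerate kinase carries out the first step that yields ATP. Pyruvate then either becomes lactate or enters mitochondria through the pyruvate dehydrogenase complex, which pyruvate dehydrogenase kinases such as PDK1 switch off by phosphorylation. Macrophages and microglia are known to shift toward glycolysis after LPS, and HIF-1, a transcription factor that binds a short DNA core, is known to act on many glycolytic genes and on Pdk1.

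Levels are given as FPKM (fragments relative to transcript length and to the fragments of the library), so that genes can be set side by side. All 6 genes were lower in every library taken after 1 h of LPS than in any untreated library. In that comparison 34.9% of all tested genes were called lower. How many of all genes separate without overlap, here or in the comparisons below, was not counted. After 12 h the 6 genes had parted: Hk2, Aldoa and Pgk1 stood above the untreated level (Aldoa and Pgk1 below it under quantile normalization), Pfkp had regained most of its loss, and Pfkm and Pdk1 had fallen further. The change of Pfkm was the largest of the 6, from 13.5 ± 0.608 FPKM (SD, n = 3, as throughout) in untreated cells to 5.09 ± 0.381 at 12 h. The ratio of Pfkp to Pfkm went from 5.01 ± 0.123 to 12.1 ± 0.879.

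The 9 libraries were alike in scale, with factors from median-of-ratios scaling between 0.996 and 1.00. A rough depth of 16600000 fragments (quartiles 13300000 and 21500000) came from 17 low genes, kept because their values rose in whole steps. Listed FPKM added up to between 195872 and 198075 per untreated library, between 203515 and 205413 after 1 h and between 223720 and 228207 after 12 h. Of 11 markers of microglia and macrophages 7 were listed, and their summed FPKM was 1107 to 1196, 1060 to 1093 and 949 to 994 in the 3 groups. The group means of Csf1r were 66.1, 61.0 and 47.5 FPKM, those of Trem2 90.5, 81.0 and 47.5, and those of Tyrobp 560, 545 and 412, each lowest at 12 h. Cd68 was at 391, 368 and 391. Itgam was at 27.9, 21.6 and 70.3, highest at 12 h against the direction of the sum, and Cx3cr1 at 6.27, 3.29 and 3.93. P2ry12, a marker of resting microglia, was at 1.24, 0.979 and 0.219. The table lists genes selected for a difference among these samples, so markers outside it, among them all 19 markers of astrocytes, oligodendrocytes, neurons, lymphocytes and endothelium, were not analysed here.

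**Figure D1:**
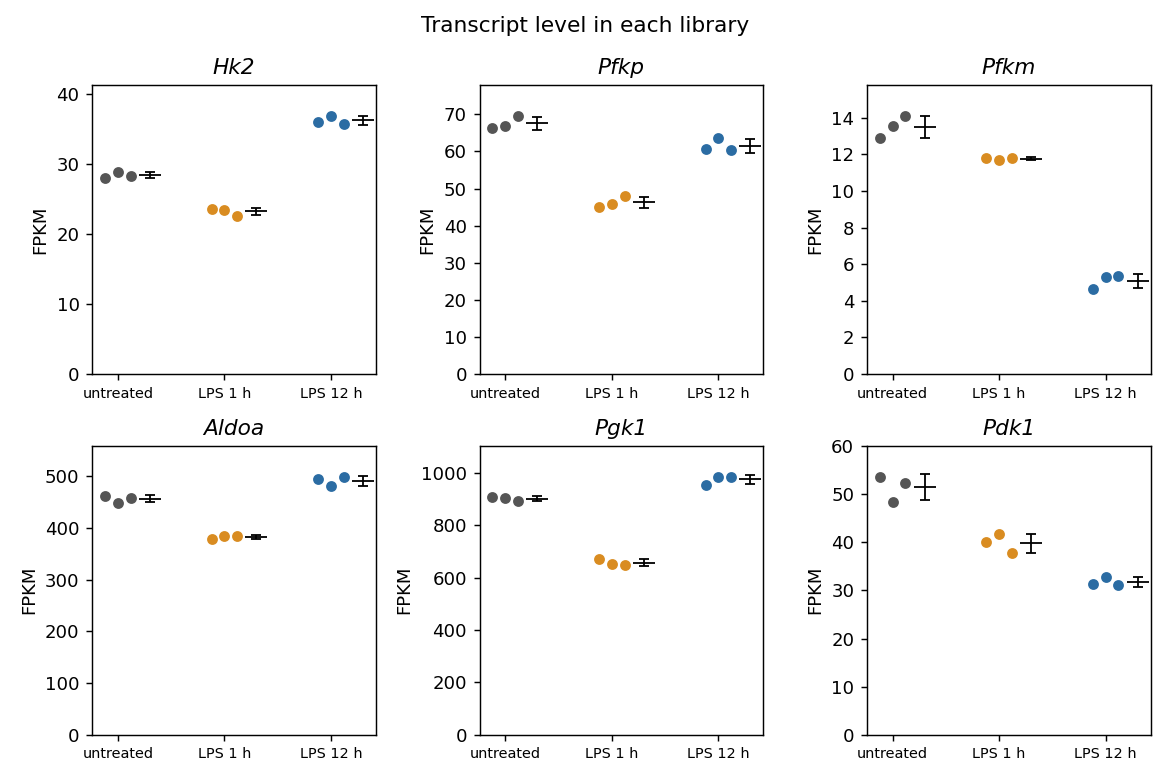
Transcript level in FPKM (vertical axes, linear from 0, a different range in each panel) of the 6 genes in untreated cells and after 1 h or 12 h with LPS. Each dot is 1 library, and the bar beside it is the mean with the SD of 3 libraries; every gene dips at 1 h, and at 12 h Pfkm (4.65 to 5.34 FPKM) and Pdk1 (31.1 to 32.9) stand lower still.

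The upstream DNA of 4 of the genes is shown because their courses differ: Hk2 and Pgk1 dipped and came back, and Pfkm and Pdk1 kept falling. The sequences are from RefSeq, build GRCm38.p6, and end at the last base before the gene. For Pfkm, which has 4 listed start sites, it is the start of the transcript whose accession the deposited table gives. Capitals mark ACGTG or GCGTG on either strand, the core that HIF-1 is known to bind; on the other strand they read CACGT or CACGC. Hk2 lies on the minus strand (chr6:82774455-82774704), Pgk1 on the plus strand (chrX:106186850-106187099), Pfkm on the plus strand (chr15:98092339-98092588) and Pdk1 on the plus strand (chr2:71872974-71873214).
Hk2: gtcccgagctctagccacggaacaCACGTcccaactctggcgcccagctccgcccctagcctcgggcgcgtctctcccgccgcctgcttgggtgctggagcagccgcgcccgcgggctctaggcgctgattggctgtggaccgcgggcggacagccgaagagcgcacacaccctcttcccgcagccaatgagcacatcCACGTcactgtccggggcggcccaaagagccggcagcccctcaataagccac
Pgk1: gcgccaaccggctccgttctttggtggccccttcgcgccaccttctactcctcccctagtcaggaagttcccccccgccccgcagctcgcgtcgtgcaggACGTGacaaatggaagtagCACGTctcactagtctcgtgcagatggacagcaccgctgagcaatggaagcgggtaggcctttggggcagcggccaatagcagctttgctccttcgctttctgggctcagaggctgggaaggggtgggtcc
Pfkm: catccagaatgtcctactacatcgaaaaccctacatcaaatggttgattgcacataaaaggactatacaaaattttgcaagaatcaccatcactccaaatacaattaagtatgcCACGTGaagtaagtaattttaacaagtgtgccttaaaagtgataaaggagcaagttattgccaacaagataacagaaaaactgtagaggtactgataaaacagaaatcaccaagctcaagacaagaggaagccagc
Pdk1: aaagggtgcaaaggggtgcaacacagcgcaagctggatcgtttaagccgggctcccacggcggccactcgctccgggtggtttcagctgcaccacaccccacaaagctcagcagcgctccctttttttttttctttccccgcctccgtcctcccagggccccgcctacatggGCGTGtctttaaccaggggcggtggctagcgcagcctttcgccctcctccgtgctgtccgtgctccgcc

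The core was found 226 and 52 bases before the start of Hk2, 150 and 131 bases before that of Pgk1 and 78 bases before the first of 2 listed starts of Pdk1, whose sequence above stops a few bases short of that start, where the RefSeq span of the gene begins. In Pfkm a single CACGTG, 136 bases before the start, holds the core on both strands, and the same letters are an E-box, a site for another class of factors. Pfkp (sequence not shown) has 3 GCGTG cores, 136, 68 and 23 bases before its start. In windows of 250 bases, 9 of 12 start sites of the 6 genes held at least 1 core, some of them in overlapping windows of 1 gene, against 38.6% of the 32851 RefSeq windows of 27025 mouse genes. ACGTG alone was in 16.6% of all windows, GCGTG in 28.2% and CACGTG in 6.02%. The core occurred before genes that came back and before genes that did not, and its part in their courses was not tested. A match describes letters only and is no measure of binding.

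Differences were tested on log2(FPKM + 1) with limma over 5643 genes with a mean of at least 1 FPKM, and a gene was called at a Benjamini-Hochberg adjusted p under 0.05. All 6 genes passed the filter on level. At 1 h all 6 were called lower; 34.9% of all tested genes were called lower in that comparison, 24.1% higher and 59.0% in either direction. Between 1 h and 12 h, 4 of the 6 (Hk2, Pfkp, Aldoa and Pgk1) were called higher, against 41.9% of tested genes, and 2 (Pfkm and Pdk1) lower, against 43.6% (85.5% in either direction). Between untreated cells and 12 h, 3 were called higher (Hk2, and Aldoa and Pgk1, which were lower under quantile normalization), against 41.1% of tested genes, and 3 lower (Pfkp, Pfkm and Pdk1), against 40.6% (81.7% in either direction). Because most listed genes pass these tests, a call by itself sets none of the 6 apart, and the sizes and directions carry the description. The change from untreated to 12 h is the sum of the first change and the later one, so its test says whether the later change fell short of the dip or went past it.

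Hexokinase 2 is the inducible hexokinase, which can sit on the outer mitochondrial membrane. Hk2 read 28.0, 28.9 and 28.3 FPKM in the 3 untreated libraries, 23.6, 23.4 and 22.6 at 1 h, and 36.0, 36.9 and 35.7 at 12 h. The 3 groups did not overlap, with 1 h the lowest and 12 h the highest. Its log2 difference was -0.28 ± 0.03 (SE) at 1 h (limma adjusted p = 5.02e-06) and 0.62 ± 0.03 from 1 h to 12 h (adjusted p = 3.18e-10). At 12 h it stood 27.4% above untreated cells, a log2 difference of 0.34 with a 95% confidence interval of 0.27 to 0.41 (adjusted p = 2.11e-07), the largest increase over untreated cells of the 6 genes. Here the later rise was 220.5% of the dip on the log2 scale. Under quantile normalization the dip was -0.34 and the rise 0.58, so that share was lower.

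Aldoa encodes aldolase A, the main aldolase of muscle and of most dividing cells. Its libraries read 463, 449 and 458 FPKM without LPS, 379, 384 and 385 at 1 h, and 494, 481 and 499 at 12 h. The 12 h libraries lay above the untreated ones by a narrow gap, 481 against 463 at the nearest. It fell by 0.25 on the log2 scale at 1 h (SE 0.02, limma adjusted p = 7.04e-07), and rose by 0.36 from 1 h to 12 h (adjusted p = 5.28e-09), to 0.11 above untreated cells (95% interval 0.05 to 0.16, adjusted p = 0.00105). Under quantile normalization, which gives every library the same set of values, that last difference turned to -0.15 (adjusted p = 2.02e-05) and the rise from 1 h to 12 h shrank to 0.15.

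Pgk1 encodes phosphoglycerate kinase 1 and had the highest level of the 6 in every library. It read 909, 903 and 892 FPKM in untreated cells, 672, 650.5 and 648 at 1 h, and 953, 985 and 985 at 12 h. Its dip was the second largest of the 6, a percent change in FPKM of -27.1% and a log2 difference of -0.46 ± 0.02 (SE; limma adjusted p = 9.35e-10). The rise that followed was 0.57 ± 0.02 (adjusted p = 3.21e-11), which placed the 12 h level 0.11 above untreated cells (95% interval 0.06 to 0.16, adjusted p = 0.000611). As for Aldoa, quantile normalization turned this last difference, to -0.13 (adjusted p = 0.000209), so for these 2 genes a level above untreated cells at 12 h depends on the scaling, while the dip and the rise after it do not change direction. Aldoa and Pgk1 have retrogenes or pseudogenes of similar sequence in the mouse genome, among them Aldoart1 and Pgk1-rs7, and reads shared with those copies could have been assigned either way.

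Pfkp, Pfkm and Pfkl encode the platelet, muscle and liver types of phosphofructokinase, whose products assemble into tetramers. Pfkp read 66.3, 66.8 and 69.6 FPKM in untreated cells, 45.0, 45.8 and 48.0 at 1 h, and 60.7, 63.7 and 60.3 at 12 h. Among the 6 genes it had the deepest dip, a log2 difference of -0.54 ± 0.03 (SE; limma adjusted p = 8.68e-09). By 12 h it had risen by 0.40 (adjusted p = 6.72e-08), which is 75.3% of the dip on the log2 scale. It stayed below all untreated libraries, with a log2 difference of -0.13 (95% interval -0.21 to -0.06, adjusted p = 0.00252) that was -0.29 under quantile normalization. With that scaling the dip was -0.62 and the rise 0.33, so the share of the dip regained was lower.

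Pfkm, whose upstream sequence is shown above, took another course. Its libraries read 12.9, 13.5 and 14.1 FPKM without LPS, 11.8, 11.7 and 11.8 at 1 h, and 4.65, 5.29 and 5.34 at 12 h. The dip at 1 h was the smallest of the 6, at -0.18 ± 0.05 (SE, log2; limma adjusted p = 0.00624), and the nearest libraries of the 2 groups were at 12.9 and 11.8 FPKM. Between 1 h and 12 h it fell by 1.07 on the log2 scale (95% interval -1.18 to -0.96, adjusted p = 9.82e-11). At 12 h it held 37.7% of its untreated FPKM, with a log2 difference of -1.25 (95% interval -1.36 to -1.14, adjusted p = 1.54e-11).

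Because both values of the ratio come from the same library, the Pfkp to Pfkm ratio does not depend on a scaling factor shared by all genes of a library. It was 5.15, 4.93 and 4.94 in the untreated libraries, 3.81, 3.92 and 4.07 at 1 h, and 13.0, 12.0 and 11.3 at 12 h. The groups did not overlap. The ratio was lowest at 1 h, when Pfkp had dipped more than Pfkm. It was highest at 12 h, when Pfkp had regained most of its dip and Pfkm had fallen further. On the log2 scale the ratio differed from untreated cells by -0.35 at 1 h and by 1.27 at 12 h, and 12 h differed from 1 h by 1.62. An exact permutation test over the 9 libraries gave p = 0.00357 for a difference among the 3 groups, the smallest p its 1680 arrangements allow. Each pair of groups gave the two-sided exact p = 0.1, the smallest that 3 against 3 libraries can give. Both genes come from a list selected for a difference among these same groups. The ratio was chosen with earlier results of these data known, so these p-values are no independent evidence of a change.

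Pfkl, listed as well, read 49.9 ± 0.878, 41.0 ± 0.803 and 45.1 ± 0.556 FPKM in the 3 groups. The summed FPKM of the 3 phosphofructokinase genes was 130.9 ± 1.57 without LPS, 99.0 ± 2.31 after 1 h and 111.7 ± 2.42 after 12 h; the sum itself was not tested. Of that sum Pfkp made up 51.6% ± 0.724, 46.7% ± 0.441 and 55.1% ± 0.458. Pfkm made up 10.3% ± 0.366, 11.9% ± 0.281 and 4.56% ± 0.325, and Pfkl 38.1% ± 1.06, 41.4% ± 0.229 and 40.4% ± 0.565. Pfkp was thus the leading isoform transcript in all 3 groups, and the share that Pfkm lost at 12 h stood against higher shares of the other two than in untreated cells. The ratio of Pfkp to Pfkl was 1.36 ± 0.0569 in untreated cells, 1.13 ± 0.0163 at 1 h and 1.36 ± 0.0293 at 12 h, a dip and a return; this ratio was chosen after its values were seen and was not tested.

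**Figure D2:**
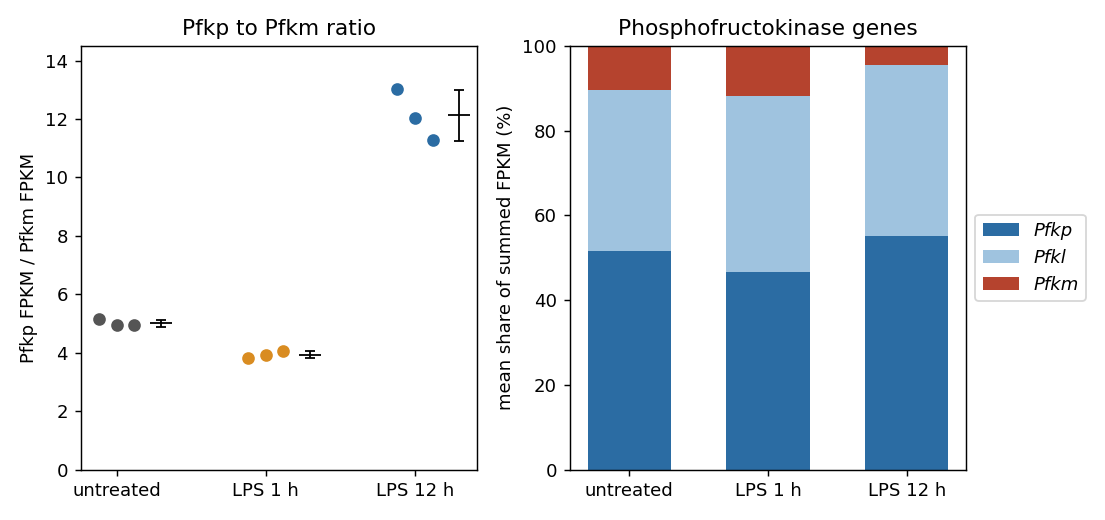
Left, the ratio of Pfkp to Pfkm FPKM (linear axis from 0) in each library, with the mean and SD of 3 libraries per group; the 12 h libraries sit at 11.3 to 13.0, above 4.93 to 5.15 in untreated cells and 3.81 to 4.07 at 1 h. Right, the mean share in percent of Pfkp, Pfkl and Pfkm in their summed FPKM in each group, where Pfkm narrows from 10.3% to 4.56% at 12 h.

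Pdk1 in this table is the gene of pyruvate dehydrogenase kinase 1, by its name and NCBI gene ID, and not the phosphoinositide-dependent kinase gene Pdpk1 that has shared the symbol. It read 53.6, 48.3 and 52.3 FPKM in untreated cells, 40.0, 41.6 and 37.7 at 1 h, and 31.3, 32.9 and 31.1 at 12 h. This gene, whose upstream sequence is shown above, stepped down at both times with no overlap between groups. Its log2 difference was -0.36 ± 0.04 (SE) at 1 h (limma adjusted p = 8.89e-06) and -0.32 ± 0.04 from 1 h to 12 h (adjusted p = 1.21e-05). At 12 h it held 61.8% of the untreated FPKM, a log2 difference of -0.68 (95% interval -0.77 to -0.58, adjusted p = 3.15e-09). In the authors' deposited table the column headed as q-value gives 0.0807 for Pdk1, near the highest value listed (0.0999), and at most 1.8e-08 for the other 5 genes. The column headed as p-value in the authors' deposited table is the larger of the pair for Pdk1 (1.0), Hk2 (2.35e-05), Pfkp (4.11e-10) and Pfkm (4.14e-09). A q-value adjusted from that p-value would not give this. For Hk2, Pfkp and Pfkm that column equals the column headed as q-value times the deposited rank, and the test behind either column is not stated.

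**Figure D3:**
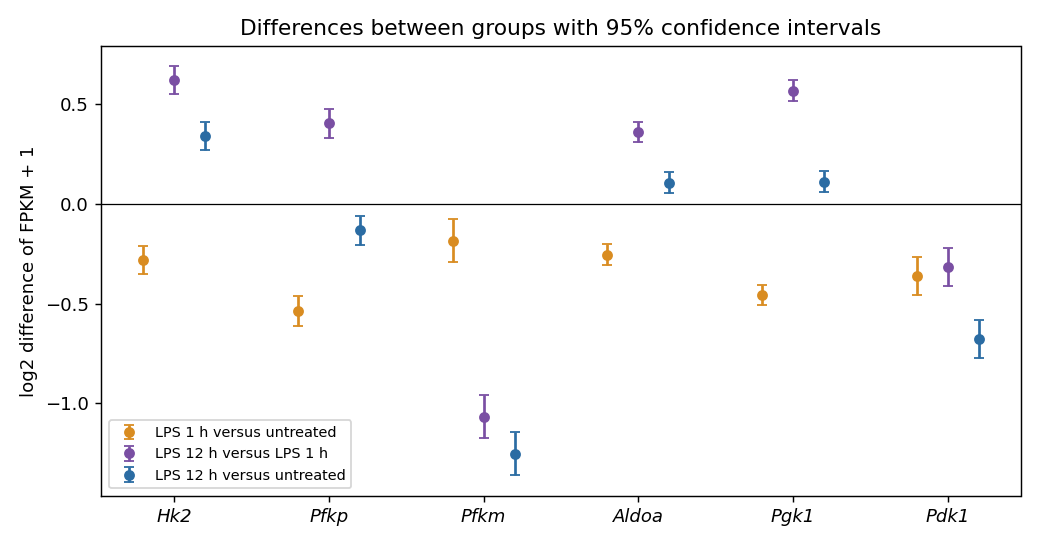
Log2 difference of FPKM + 1 (vertical axis) for the 6 genes in the 3 comparisons, with points for the limma estimates and bars for 95% confidence intervals. All 6 are below 0 at 1 h (orange); from 1 h to 12 h (purple) Hk2, Pfkp, Aldoa and Pgk1 are above 0 and Pfkm and Pdk1 below, and at 12 h against untreated cells (blue) Pfkm is lowest at -1.25.

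The order of the levels changed in 1 place. In untreated cells and at 1 h it ran Pgk1, Aldoa, Pfkp, Pdk1, Hk2, Pfkm from the highest to the lowest, and no neighbours in that order overlapped between libraries. At 12 h Hk2 (35.7 to 36.9 FPKM) had passed Pdk1 (31.1 to 32.9), again with no overlap. The ratio of Hk2 to Pdk1 was 0.554 ± 0.0393, 0.584 ± 0.0186 and 1.14 ± 0.0166 in the 3 groups; it was chosen for this crossing and was not tested.

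Across the 9 libraries, log2(FPKM + 1) of Aldoa and Pgk1 varied most alike of the 15 pairs (Pearson r = 0.981), Hk2 correlated with Aldoa at 0.94 and with Pgk1 at 0.921, and Pfkm with Pdk1 at 0.89. Pfkp and Pfkm had r = -0.139, and Hk2 and Pfkm r = -0.814. These values describe 3 groups of 3 libraries, which share their treatment, so they mostly restate the group means. Outside the 6, the genes most like Aldoa were Tpi1 (r = 0.997), the neighbouring glycolytic enzyme triosephosphate isomerase, at 542 ± 14.1, 456 ± 5.44 and 582 ± 9.08 FPKM, then Olfm1 (0.994) and H6pd (0.992). The most like Pgk1 were Anxa2 (0.995), Tln1 (0.994) and Pip4k2b (0.994). For Hk2 they were Znfx1 (0.996), Pon2 (0.994) and Zfp287 (0.993), and for Pfkp Gse1 (0.994), Runx3 (0.992) and Ccnd2 (0.992). Pfkm was most like Rbfa (0.998), Ptpra (0.997) and Kdsr (0.997), and Pdk1 most like Bambi (0.993), Selenbp2 (0.992) and Tchp (0.992). Among these 18 genes Tpi1 is the only one that is an enzyme of glycolysis itself.

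The rest of the pathway was described with 9 lists of textbook members, 85 genes in all, of which 49 were listed and tested. Each list's counts stand against the shares of all tested genes that were called: at 1 h 24.1% higher and 34.9% lower, from 1 h to 12 h 41.9% and 43.6%, and at 12 h against untreated cells 41.1% and 40.6%. The medians of all tested genes were -0.03, 0.01 and 0.03 (log2) in these comparisons. Of the glycolytic enzymes outside the 6, 10 of 18 were tested. All 10 fell at 1 h (limma; median of their log2 differences -0.26). From 1 h to 12 h 8 rose and 1 fell, and Aldoc did not pass (0.06, adjusted p = 0.142); here the median was 0.34. Against untreated cells, 6 of the 10 were higher and 4 lower at 12 h, with a median of 0.13. Eno3, the muscle type of enolase, was the 1 that fell after 1 h: it read 27.6 ± 1.98, 23.1 ± 0.713 and 11.9 ± 0.628 FPKM, a log2 difference of -1.15 at 12 h (adjusted p = 3.89e-11) beside -1.25 for Pfkm, the muscle type of phosphofructokinase. Under quantile normalization 9 of the 10 fell at 1 h and 5 rose after it, and at 12 h 2 stood above untreated cells and 5 below (median -0.14), so the side on which the enzymes stood at 12 h depends on the scaling.

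The 3 tested hexokinases kept to 1 pattern, also under quantile normalization: all 3 fell at 1 h and all 3 were higher at 12 h than in untreated cells. At 12 h Hk3, known from white blood cells, had a log2 difference of 0.83 (65.2 ± 3.0 FPKM against 36.2 ± 1.52, adjusted p = 1.03e-10), and Hk1 one of 0.22 (adjusted p = 3.98e-05), with Hk2 at 0.34 between them. Among 5 tested genes of phosphofructokinase and its regulators, 4 fell and 1 rose at 1 h, and at 12 h 2 were above untreated cells and 3 below. The 3 lower ones were the phosphofructokinases themselves (Pfkl at -0.14, adjusted p = 0.000496, and at -0.27 under quantile normalization). Pfkfb3, whose product makes the activator fructose 2,6-bisphosphate, had a log2 difference of -0.22 at 1 h (adjusted p = 0.00308) and of 0.15 at 12 h (adjusted p = 0.0178), which were -0.13 and 0.25 under quantile normalization. Tigar, which removes that activator, rose to 0.37 (adjusted p = 1.5e-06). In the list of other glycolytic enzymes, which holds Aldoa and Pgk1, all 9 tested fell at 1 h and 6 were higher and 3 lower at 12 h; under quantile normalization none was higher at 12 h and 6 were lower.

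Glucose enters cells through some transporters of the SLC2A family, and the 5 tested genes of that family went separate ways. They were taken by family, and whether each carries glucose into these cells was not tested. At 1 h 4 fell and 1 rose (2 fell under quantile normalization, where Slc2a8 and Slc2a9 did not pass, with adjusted p = 0.232 and adjusted p = 0.372), and at 12 h 2 stood above untreated cells and 3 below. Slc2a1, the common glucose transporter, shared the dip of Hk2 (57.0 ± 1.91 against 67.6 ± 3.31 FPKM) and reached 114 ± 7.8 at 12 h, a log2 difference of 0.75 (adjusted p = 2.25e-09). Slc2a3, a transporter of high affinity, fell to 3.04 ± 0.39 from 8.28 ± 0.471 FPKM, and Slc2a6 was higher at both times, with log2 differences from untreated cells of 0.68 and 1.16 (adjusted p = 1.76e-10 and adjusted p = 1.93e-13). On the lactate side, of 4 tested genes 2 fell and 1 rose at 1 h, where quantile normalization gave 3 lower and 0 higher. At 12 h 3 of them were higher than without LPS and 0 lower, where quantile normalization gave 1 higher and 2 lower. Slc16a3, a lactate exporter, had a log2 difference of 0.44 at 12 h (adjusted p = 1.16e-08), and of 0.27 under quantile normalization. The other tested genes of this list changed sign at 12 h under quantile normalization. Ldha went from 0.07 to -0.24, Slc16a1 from 0.14 to -0.01 and Bsg from 0.03 to -0.15.

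Around Pdk1, at the entry of pyruvate into mitochondria, 5 of 14 genes were tested, and at 1 h Pdk1 alone of the 5 passed; under quantile normalization Pdhb, a subunit of the pyruvate dehydrogenase complex, passed as well (-0.09, adjusted p = 0.0141, against 0.00 and adjusted p = 0.979). At 12 h 3 of the 5 were higher than in untreated cells and 2 lower (1 and 3 under quantile normalization). Dld, another subunit of that complex, had a log2 difference of 0.32 at 12 h (adjusted p = 1.77e-07), which was 0.13 under quantile normalization. Mpc2, a subunit of the mitochondrial pyruvate carrier, fell with Pdk1, at -0.46 (adjusted p = 7.37e-07). In the pentose phosphate branch, which leaves glycolysis after hexokinase, 2 of 5 fell at 1 h and 3 did not pass, a share near that of all tested genes, and 4 of 5 fell under quantile normalization. At 12 h 4 were higher and 1 lower under both scalings, and G6pdx, the first enzyme of the branch, had a log2 difference of 0.63 (adjusted p = 4.33e-10). In the list of glycogen and hexose phosphate genes 6 of 7 fell at 1 h, and at 12 h 1 was higher, 5 were lower and 1 did not pass. Gys1, glycogen synthase, fell at 1 h to 16.1 ± 0.395 from 26.0 ± 0.69 FPKM, a deeper dip than that of Pfkp (log2 difference -0.66, adjusted p = 9e-10), and stood at 24.4 ± 0.143 at 12 h.

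The list of transcription factors known for glycolytic genes, with the oxygen sensors that act on them, had 3 of 6 tested genes higher and 3 lower at 1 h, and 1 higher and 3 lower at 12 h. One of the 3 higher at 1 h was Myc, at 0.422 ± 0.17, 2.06 ± 0.246 and 0.604 ± 0.171 FPKM in the 3 groups. Myc reached the mean of 1 FPKM only through the 1 h group, so the filter favoured its place in that count. Hif1a, which encodes a HIF-1 subunit, rose while the 6 genes dipped, from 41.3 ± 1.9 to 48.5 ± 1.64 FPKM, and stood at 59.0 ± 1.06 at 12 h (log2 differences 0.23 and 0.51, adjusted p = 0.000134 and adjusted p = 1.23e-08; 0.15 and 0.36 under quantile normalization). Egln1 and Egln3, oxygen sensors that mark HIF subunits for breakdown and that are themselves known HIF targets, fell at 1 h, with log2 differences of -0.61 and -1.18. Egln3 then rose to 5.44 ± 0.34 FPKM at 12 h from 3.22 ± 0.365 at 1 h, against 8.58 ± 0.611 in untreated cells, and Egln1 stayed at 25.4 ± 1.22 against 39.6 ± 2.02. Epas1 was lower at both times, with log2 differences from untreated cells of -0.42 at 1 h and -0.72 at 12 h. Hif1an was higher at 1 h (0.14) and did not pass at 12 h (-0.01). The part of any of these genes in the courses of the 6 was not tested.

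**Figure D4:**
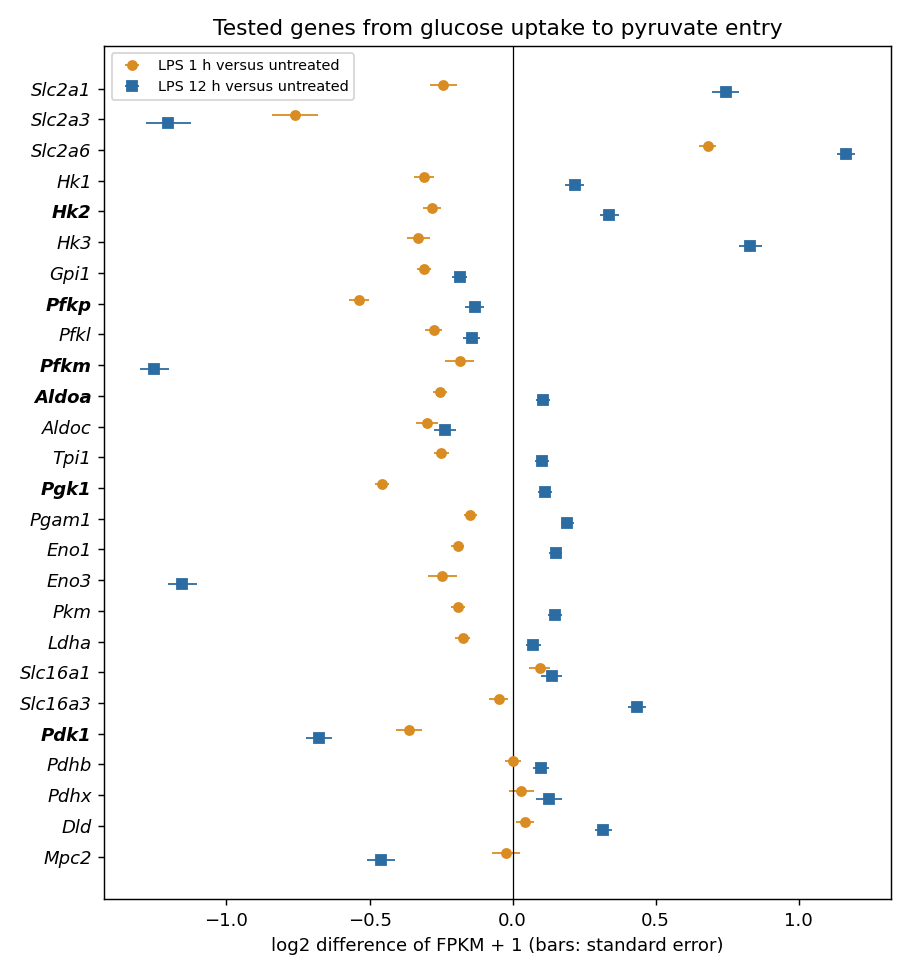
Log2 difference of FPKM + 1 (horizontal axis, bars are standard errors) for 26 tested genes. They run in pathway order from SLC2A transporters (top) to pyruvate entry (bottom). Values are at 1 h (orange circles) and 12 h (blue squares) against untreated cells, and the 6 genes described here are in bold. At 1 h nearly all enzymes lie left of 0, and at 12 h Pfkm (-1.25), Eno3 (-1.15) and Pdk1 (-0.68) lie far to the left of the other enzymes.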

How the data were processed

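RNA was measured in 9 libraries of BV2 cells, 3 per group. Per the labels' protocols, TRIzol was used for the RNA and a TruSeq Stranded mRNA kit for the libraries. The submitters' processing notes list, with neither version nor role, DESeq, HTSeq, Cufflinks, HISAT2 and Trimmomatic. The build they give is the human GRCh38 although gene symbols are of mouse, and which build was used is unclear; the printed sequences were matched by NCBI gene ID. The deposited values are FPKM per gene. Per the file headers the authors also deposited p-value and q-value columns, a rank and a flag, 2 score columns; the flag is 1 for all 6462 listed genes, so these had been selected on a difference among the same samples, and adjusted p-values do not cover the transcriptome.

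FPKM was compared as log2(FPKM + 1) with limma 3.58.1 (R 4.3.3), 1 mean per group and eBayes with trend. Genes under a mean of 1 FPKM (819) were left out, and p-values were adjusted over 5643 genes. The fit was also run on simulated data in which few genes changed. Most genes are called here, so that run does not measure the false calls in this selected list. The Pfkp to Pfkm ratio was tested by exact permutation (Python 3.11.15). Depth is not given. In low genes with 1 transcript, 55.1% of 187 values lay within 0.1 of a whole multiple of the smallest, where that tolerance alone gives 20%. The rough depth came only from the 17 genes whose compared values all lay so. It takes their smallest value as 1 fragment and the libraries as equal in depth. Libraries of a group correlated at 0.998 to 0.999 across genes. Libraries of the same number in different groups had residual correlations of -0.07 to 0.13. Those of different number were not computed for comparison, so whether the numbers pair the libraries is not known.

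The 6 genes, the lists, the tests and the ratio were chosen with earlier results of these data known. Named besides the 6 are tested genes of the lists and, for each of the 6, the 3 named genes with the highest Pearson correlation over the 9 libraries. The fit was repeated without each library in turn, with the library number as a block, on 6 libraries at a time, with array weights, with no eBayes trend, after median-of-ratios or quantile scaling, with a mean of at least 5 FPKM or no minimum, and with pseudocounts of 0.1 and 0.5.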

Additional observations from a re-analysis of the deposited data

How the results depend on the processing

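Of 360 recomputed differences (6 genes, 3 comparisons, 20 alternatives), 358 kept their direction and their side of the threshold. Many of these directions could not turn. Leaving out a library of the group not compared returns the same difference. So do another filter on level, no eBayes trend, only 6 libraries, the library number as a block and another adjustment of p. In those only the side of the threshold could change. The 2 that reversed were those of Aldoa (-0.15) and Pgk1 (-0.13) between 12 h and untreated cells under quantile normalization; the cause was not tested. Adjustment over 21900 protein-coding RefSeq genes, with genes outside the fit counted as not significant, was added after seeing the data and left all 6 called in each comparison. The dip of Pfkm came nearest to the threshold, with adjusted p between 0.00247 and 0.0325, the highest without untreated library 3 (limma). Leaving out 1 library at a time kept 6 genes called in each comparison and the change of the log2 Pfkp to Pfkm ratio at 12 h between 1.22 and 1.32. With pseudocounts of 0.1 and 0.5 that change was 1.26 and 1.19. As a percent of the pair, which restates the same ratio, Pfkp was 83.3% ± 0.338, 79.7% ± 0.522 and 92.4% ± 0.508 in the 3 groups (exact permutation p = 0.00357, again the smallest possible).

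With the library number as a replicate block, 6 genes remained called in each comparison. The ratio, with the same change of 1.27, had an exact permutation p = 0.0278 within blocks, the smallest that this test can give. The FPKM table gives no counting error for single values, so precision is known only from the 3 libraries of a group.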
